A study of Drosophila melanogaster with 4 samples.

Results

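The genes described here build the basement membrane and the secreted matrix around *Drosophila* cells. They are 10 genes, chosen by symbol: *Col4a1* and *vkg*, *LanA*, *LanB1* and *LanB2*, *trol*, *Ndg*, *SPARC*, *Ppn* and *Pxn*. All 10 were found among the 13909 genes with transcripts in the RNA-seq files, and all 10 passed the filter on low counts that left 8182 genes for testing. They were followed in S2R+ cells, a *Drosophila* line of embryonic origin, in 2 libraries of the enhancer mutant and 2 libraries of wild-type cells. The enhancer mutant lacks an enhancer inside an intron of *Notch*, the gene of a cell surface receptor, and was made with Cas9 and pairs of guide RNAs, puromycin selection and serial dilution to a homozygous clone. Wild-type cells are S2R+ cells without that deletion. Both groups were grown in the same medium without further treatment. The mutant is a clone and the wild-type is not described as one, so effects of the deletion and of selection and cloning cannot be told apart. The comparison asks which genes changed their RNA level in the cells without the enhancer, and what is given here is the answer for the matrix genes.

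A basement membrane is a thin sheet of extracellular matrix that lines epithelia, muscles and other tissues. Its main parts are collagen IV, a triple helix of chains that cross-links into a network; laminin, a heterotrimer of an alpha, a beta and a gamma chain that assembles at the cell surface and binds integrins; perlecan, a large proteoglycan carrying heparan sulfate; and nidogen, which binds laminin and collagen IV. In flies, much of this material is secreted by hemocytes (blood cells) and by the fat body. S2R+ cells are generally regarded as hemocyte-like.

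The libraries held 29605002 and 24880286 estimated counts in the enhancer mutant, against 19410313 and 16240543 in wild-type. *Notch* itself was at 38.1 and 35.3 CPM (counts scaled to library size with TMM factors) in the mutant, against 160.1 and 126.0 CPM in wild-type, a log2 fold change of -1.96 ± 0.13 (SE). Among plasmatocyte markers, the GATA factor gene *srp* was at 268.6 and 266.7 CPM in the mutant and 321.5 and 250.7 CPM in wild-type, while *NimC1*, a receptor of mature plasmatocytes, had at most 2 counts in any library. The 10 plasmatocyte markers summed to 1903 and 1771 CPM in the mutant and to 1552 and 1418 CPM in wild-type. Of the 8 tested, 1 was called lower (*Hml*, hemolectin) and 3 higher (*crq*, *He* and *Sr-CI*). *He* had only 31 and 16 counts in the mutant, against 4 and 1 in wild-type. *Sr-CI* was not called in DESeq2 or with library sizes alone. Of markers of other cell types, 4 of 5 lamellocyte genes had transcripts in the files and summed to 936.5 and 844.8 CPM in the mutant and 565.4 and 553.4 CPM in wild-type, mostly from *cher*, which rose (0.76), while *atilla* had 0 counts in every library. The other 2 tested lamellocyte genes had lower values in the mutant, short of the fold limit in edgeR: *PPO3* (-0.40, adjusted p = 0.0065) and *mthl4* (-0.45, adjusted p = 0.0091). The 7 fat body genes summed to 1008 and 828.0 CPM in the mutant and 959.0 and 790.8 CPM in wild-type, mostly from *FASN1*, with *apolpp* risen (2.52) and *Fbp1* at 1 count or fewer. The 7 muscle genes summed to 60.0 and 55.9 CPM in the mutant and 66.2 and 62.4 CPM in wild-type, mostly from *Mef2*, with *Act57B* risen (1.93) and *Mhc* at 2 counts or fewer. In CPM, 4 of these 7 had both mutant values under both wild-type values, and 1 had them above. Only 3 of the 7 were tested, and of the 4 lower ones only *Mef2* (-0.16, not called) was. The others, *Mhc*, *up* and *wupA*, had at most 10 counts in any library. Of all tested genes, 37.9% had both mutant values under and 37.7% above, shares that do not cover untested genes. Crystal cell (5 genes), neuron (6) and follicle cell (6) markers summed to at most 11.5, 75.6 and 2.37 CPM in a library, and among them *peb* (-1.35) and *slbo* (-3.41) fell, *tj* rose (1.65), and *PPO1* and *Cp36* had 0 counts in every library. The part of these marker levels in the results below was not tested. The paper states that RNA was extracted in duplicate and that the 2 libraries of a group were independent, but not that they came from separate cultures. The p-values therefore measure the spread between libraries, which may be technical. Permuting 2 libraries against 2 exactly, two-sided, gives no p below 0.333 for any gene, so all tests below come from the edgeR fit over all 8182 genes with Benjamini-Hochberg adjustment. In such bulk RNA, fewer cells that transcribe a gene and less RNA per cell cannot be told apart.

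Of the 10 matrix genes, 5 were called, meaning an adjusted p below 0.05 together with a log2 fold change of 0.5 or more in size, where 27.9% of all tested genes were called. The 3 that fell were *trol*, *Col4a1* and *vkg* (15.3% of all tested genes were called lower), and the 2 that rose were *Ppn* and *SPARC* (12.6% of all tested genes were called higher). By adjusted p alone, 8 of the 10 passed, 4 in each direction, where 48.7% of all tested genes did. With library sizes alone *LanB2* and *Pxn* no longer passed (adjusted p = 0.077 and 0.142 in edgeR). In CPM, 5 genes had both mutant values under both wild-type values (37.9% of all tested genes did so) and 4 had them above (37.7% of all tested genes), and the groups overlapped for *LanA* alone. The median log2 fold change over the 10 genes was -0.10, beside -0.00 over all tested genes, and it lay between -0.25 and -0.01 when each library was left out, the upper end without wild-type replicate 1.

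**Figure D1:**
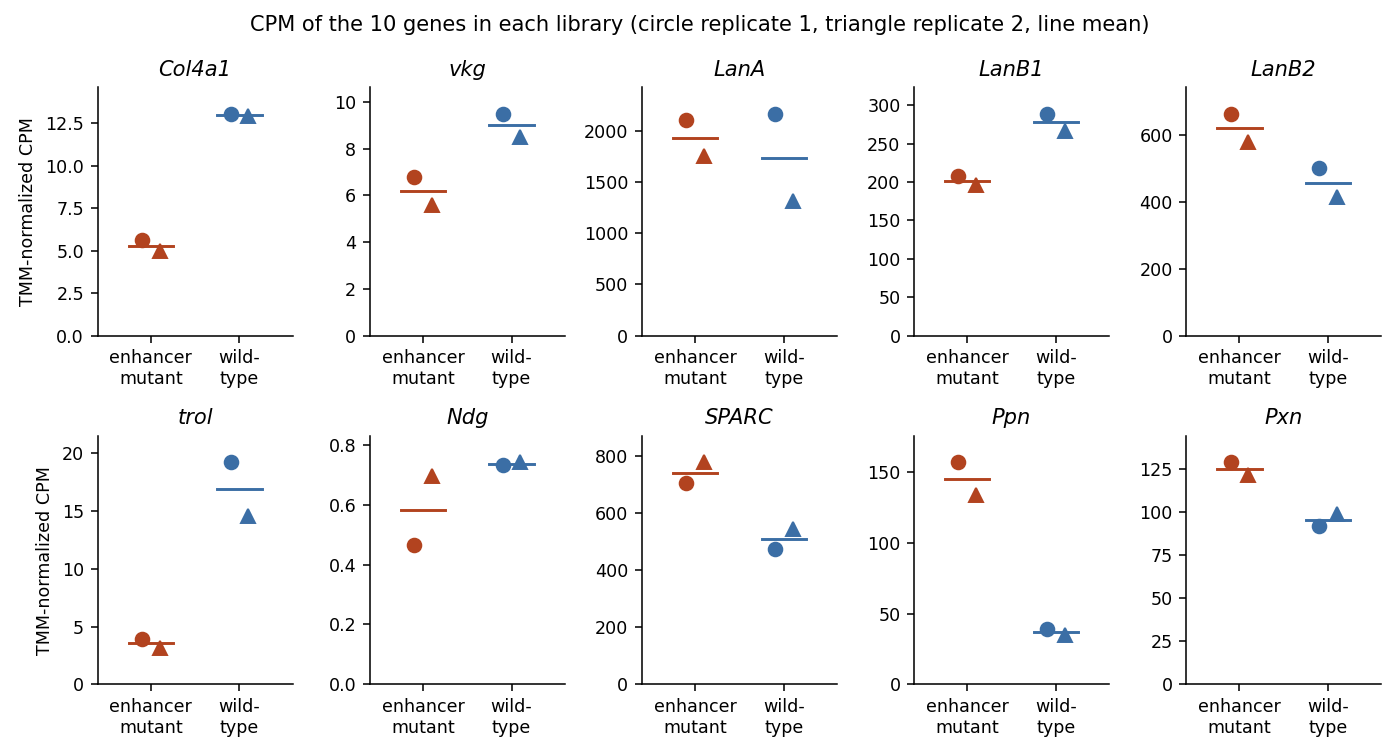
TMM-normalized CPM (vertical axis of each panel, starting at 0) of each of the 10 genes in the 2 enhancer mutant libraries (red, left) and the 2 wild-type libraries (blue, right), with circles for replicate 1, triangles for replicate 2 and a line at the mean. *trol*, *Col4a1* and *vkg* are lower and *Ppn* and *SPARC* higher in both mutant libraries, and only *LanA* overlaps between the groups.

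**Figure D2:**
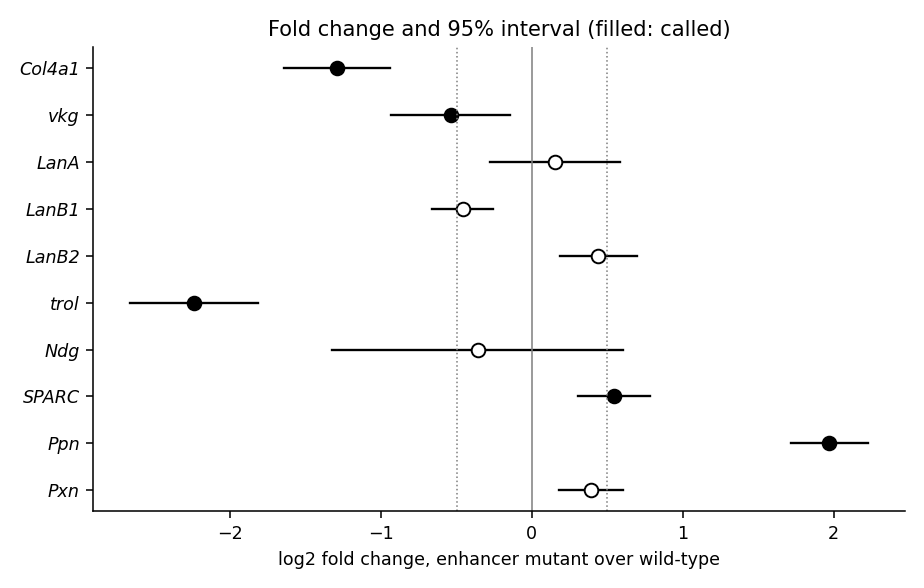
Log2 fold change of enhancer mutant over wild-type for each of the 10 genes (points) with its 95% interval from the edgeR fit (lines), filled where the gene was called, with dotted lines at -0.5 and 0.5. *trol* at -2.24 and *Ppn* at 1.97 lie at the ends, and the intervals of *LanA* and *Ndg* cross 0.

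In level, the 10 genes spanned several orders of magnitude in both groups. On the TPM scale, which also corrects for transcript length, *SPARC* had 691.0 and 690.8 TPM in the mutant and 574.3 and 667.7 TPM in wild-type, and *SPARC* thus made up between 63.6% and 75.9% of the summed TPM of the 10 genes in a library. It was the most abundant of them in all 4 libraries, ranking 169 and 169 of all genes in the mutant, against 191 and 168 in wild-type. *LanA* came next, at 130.0 and 97.7 TPM in the mutant and 170.5 and 108.9 TPM in wild-type, followed by *LanB2*, *LanB1*, *Pxn* and *Ppn* in both groups. The collagen IV chains and perlecan followed far below. In the mutant, *vkg* (0.897 and 0.670 TPM) was above *Col4a1* (0.795 and 0.623 TPM) within each library, but their ranges over both libraries overlapped. In wild-type, *Col4a1* (2.39 and 2.47 TPM) stood above *vkg* (1.57 and 1.47 TPM), whose range touched that of *trol* (1.48 and 1.19 TPM). *Ndg* was last in every library, at 0.080 and 0.108 TPM in the mutant and 0.159 and 0.170 TPM in wild-type. The summed TPM of the 10 genes was 972.1 and 910.7 in the mutant and 902.8 and 925.4 in wild-type, ranges that overlap.

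Collagen IV was lower in the mutant for both of its chains, and more so for *Col4a1* than for *vkg* in the point estimates. *Col4a1* (FBgn0000299), the alpha 1 chain, lies at chr2L:5029609-5037279 on the plus strand of dm6. It had 157 and 114 estimated counts, or 5.62 and 4.97 CPM, in the mutant, against 267 and 227 counts, or 13.1 and 12.9 CPM, in wild-type. The 2 wild-type libraries were close together and both mutant libraries lay well below them. *Col4a1* fell by 1.29 on the log2 scale (SE 0.16, 95% interval -1.64 to -0.94, adjusted p = 0.00011), or 2.45-fold, and the log2 value stayed between -1.37 and -1.20 whichever library was left out.

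*vkg* (viking, FBgn0016075), the alpha 2 chain, lies at chr2L:5012144-5028191 on the minus strand, head to head with *Col4a1*, with 1417 bases between their outermost annotated starts and 2163 bases from *Col4a1* to the start of FBtr0079036, the transcript that held at least 87.1% of the *vkg* TPM in every library. It had 6.77 and 5.58 CPM in the mutant, from 189 and 128 counts, against 9.48 and 8.50 CPM in wild-type, from 194 and 149 counts. The groups did not overlap, but the distance between them was small beside that of *Col4a1*. *vkg* fell by 0.54 on the log2 scale (SE 0.18, 95% interval -0.93 to -0.14, adjusted p = 0.029), barely past the fold limit. Its call was lost in DESeq2 (-0.52, adjusted p = 0.118), without the filter on low counts (-0.50), and without wild-type replicate 1 (-0.45), enhancer mutant replicate 1 (-0.68) or enhancer mutant replicate 2 (-0.40).

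Within each library, the ratio of *Col4a1* to *vkg* TPM was 0.887 and 0.930 in the mutant, against 1.52 and 1.68 in wild-type. *Col4a1* was thus the more abundant chain RNA in wild-type libraries and the less abundant one in mutant libraries, at levels under 3 TPM throughout. This ratio was not tested. On either side of the chain pair, the nearest tested genes were *SelT*, 16 bases beyond the end of *vkg*, and *SP555*, 429 bases beyond the end of *Col4a1*. *SelT*, a selenoprotein T homolog, rose, at 179.4 and 206.9 CPM in the mutant against 125.4 and 136.7 CPM in wild-type (log2 fold change 0.56, adjusted p = 0.0013), while *SP555* was not called (0.12, adjusted p = 0.887).

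The 3 laminin chains did not move together. *LanB1*, the beta chain, had lower values in the mutant and *LanB2*, the gamma chain, higher ones, both past the adjusted p but short of the fold limit, and *LanA*, the alpha chain, showed no difference beyond the spread of its replicates. *LanB1* (FBgn0261800, chr2L:7811438-7820771, plus strand) had 207.2 and 196.7 CPM in the mutant, against 288.7 and 266.5 CPM in wild-type. Replicates of a group lay close together and the groups were apart. The log2 fold change was -0.46 ± 0.09 (SE, 95% interval -0.66 to -0.25, adjusted p = 0.0023). It passed the fold limit, and *LanB1* was called, without wild-type replicate 2 (-0.50) and with library sizes in place of TMM factors (-0.65).

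*LanB2* (FBgn0267348, chr3L:9614914-9623980, plus strand) had 663.2 and 579.6 CPM in the mutant, against 500.1 and 415.6 CPM in wild-type. Both mutant libraries were above both wild-type libraries, by a margin about as large as the distance between replicates. The log2 fold change was 0.44 ± 0.12 (SE, 95% interval 0.18 to 0.70, adjusted p = 0.0100), and *LanB2* was called without wild-type replicate 1 (0.58) or enhancer mutant replicate 2 (0.55). On the TPM scale, where the median of all tested genes lay at a log2 ratio of -0.43, *LanB2* was at -0.00 and *LanB1* at -0.90, one above and the other below that median. With library sizes alone the median of all tested genes lay at -0.20, and *LanB2* was at 0.25.

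*LanA* (FBgn0002526, chr3L:6203831-6218022, minus strand) had 2109.7 and 1751.9 CPM in the mutant, against 2165.0 and 1310.4 CPM in wild-type. The lowest and the highest value were both wild-type, and the mutant libraries lay between them. The log2 fold change was 0.15 ± 0.20 (SE, 95% interval -0.28 to 0.58, adjusted p = 0.545), and its sign turned with library sizes alone (-0.04) and on TPM (-0.30). A single wild-type library decided the value: without wild-type replicate 1 *LanA* was called higher (0.56), and without wild-type replicate 2 the value was -0.15.

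The wild-type libraries differed from each other in long transcripts generally, and *LanA*, with a transcript of 11690 bases, is among the longest. Of 86 tested genes with a weighted transcript length of at least 10000 bases, 94.2% had a higher CPM in wild-type replicate 1 than in wild-type replicate 2, with a median log2 ratio of 0.57, while *LanA* was at 0.72. Of 7463 genes under 5000 bases the share was 45.1% and the median -0.02. Between mutant replicates 1 and 2 the medians were 0.25 for the long genes and -0.02 for the short ones. The length limits were set after these values had been seen, and the part of this difference in the value of *LanA* was not tested. The 3 laminin chains and the collagen IV chains have weighted transcript lengths between 5764 and 11690 bases, and for genes between 5000 and 10000 bases the median log2 fold change between mutant and wild-type was -0.26, beside 0.02 for genes under 5000 bases.

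As a ratio of TPM within each library, *LanB1* to *LanB2* stood at 0.290 and 0.315 in the mutant, against 0.533 and 0.593 in wild-type. *LanB1* and *LanB2* have transcripts of similar length, and this ratio separated the groups by more than replicates differed. *LanA* to *LanB2* was 1.47 and 1.40 in the mutant, against 2.02 and 1.47 in wild-type, and wild-type replicate 2 was level with the mutant libraries. Among alpha chains, *LanA* was the predominant one, at 152.4 to 313.4 times the TPM of *wb* (wing blister, the other laminin alpha chain) in every library.

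The lower level of *LanB1* was divided unevenly between its transcripts. The annotation gives *LanB1* a pair of transcripts whose starts are 2916 bases apart and whose 4 downstream exons are the same. The upstream one, FBtr0079490, opens with an exon of 335 bases and had 694.4 and 719.3 estimated counts (not scaled for depth) in the mutant, against 2251 and 1507 in wild-type. The downstream one, FBtr0079491, opens with an exon of 47 bases and had 5090 and 3793 counts in the mutant, against 3657 and 3163 in wild-type. In TPM, FBtr0079490 was at 3.15 ± 0.30 in the mutant and 15.1 ± 2.0 in wild-type, and FBtr0079491 at 20.7 ± 2.9 in the mutant and 29.3 ± 1.3 in wild-type (SD, n = 2 each). On the TPM scale the median of all tested genes lay at a log2 ratio of -0.43, so these values alone do not show that FBtr0079491 fell. FBtr0079490 therefore held 11.5% and 15.3% of the gene's TPM in the mutant, against 36.9% and 31.2% in wild-type. Such shares are Salmon's estimates from reads that mostly map to the shared exons, they rest on the first exon alone, and they were not tested.

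**Figure D3:**
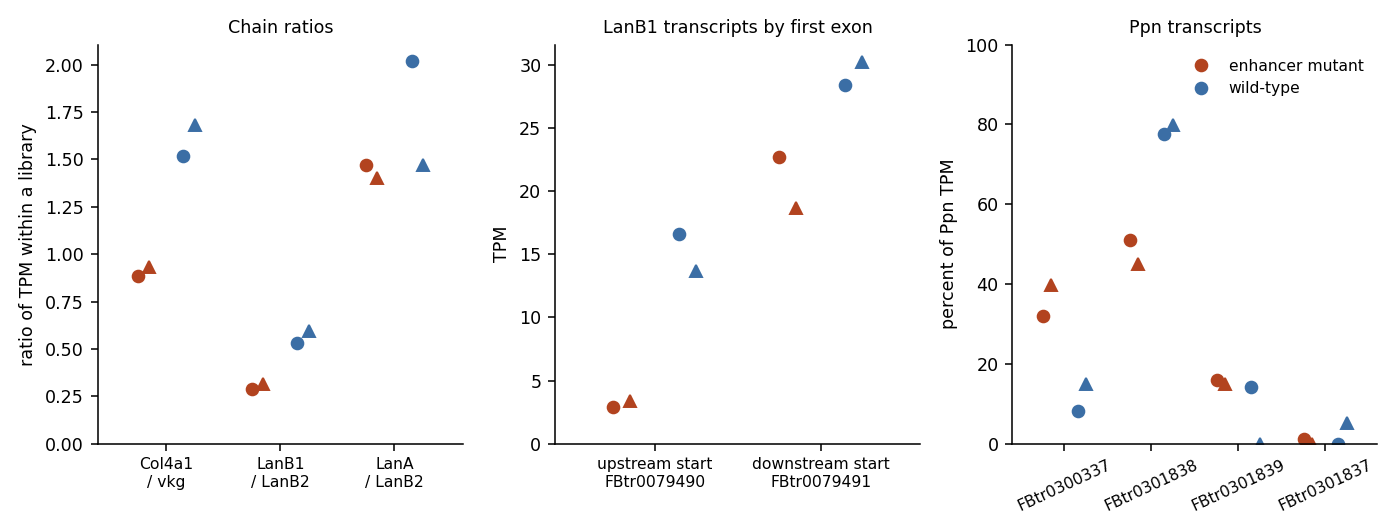
Left, ratios of TPM between matrix chains within each library; middle, TPM of the *LanB1* transcripts with the upstream and the downstream start; right, percent of *Ppn* TPM in each of 4 transcripts. Red is enhancer mutant, blue wild-type, circles are replicate 1 and triangles replicate 2. *Col4a1* to *vkg* and *LanB1* to *LanB2* are lower in both mutant libraries, and FBtr0079490 of *LanB1* is at 2.94 and 3.36 TPM in the mutant against 16.6 and 13.7 TPM in wild-type.

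Perlecan RNA fell the most of the 10 genes. *trol* (terribly reduced optic lobes, FBgn0284408) encodes the core protein of perlecan and lies at chrX:2470460-2545427 on the minus strand. It is on the same chromosome as *Notch*, 589442 bases away, upstream of the *Notch* start. It had 110 and 73 counts in the mutant, against 393 and 256 in wild-type, or 3.94 and 3.18 CPM in the mutant against 19.2 and 14.6 CPM in wild-type. The highest mutant value was well under the lowest wild-type value. *trol* fell by 2.24 on the log2 scale (SE 0.19, 95% interval -2.66 to -1.82, adjusted p = 7.84e-06), or 4.73-fold, with values from -2.41 to -2.02 when each library was left out. Its transcripts are long (12133 bases as weighted by abundance), and the 86 tested genes of at least 10000 bases had a median log2 fold change of -0.26.

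Both genes next to *trol* also fell. *boi* (brother of ihog, a Hedgehog co-receptor) lies 416 bases from *trol* and had 7.45 and 6.80 CPM in the mutant, against 13.6 and 14.0 CPM in wild-type (log2 fold change -0.95, adjusted p = 0.00046). *Pdfr*, the receptor of the neuropeptide PDF, lies 6778 bases on the other side and had 2 and 11 counts in the mutant, against 112 and 65 in wild-type (log2 fold change -4.13, adjusted p = 0.00010). No other of the 10 genes had a called neighbor of the same direction on both sides. Neighbors are here the nearest tested genes outside the 10 on each side, at any distance. Of the 18 distinct neighbors of the 10 genes, 5 were called lower and 3 higher, where 15.3% and 12.6% of all tested genes were.

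Nidogen was close to the limit of detection. *Ndg* (FBgn0026403, chr2R:10313891-10322104, plus strand) had 13 and 16 counts in the mutant, against 15 and 13 in wild-type, or 0.466 and 0.698 CPM in the mutant against 0.733 and 0.742 CPM in wild-type. The mutant values were the lower ones but enhancer mutant replicate 2 was near both wild-type libraries. The log2 fold change was -0.36 ± 0.44 (SE, adjusted p = 0.523), and its 95% interval of -1.32 to 0.61 is wide enough that a difference of the size of the fold limit was not detectable at this depth. Exons of *Ndg* overlap those of *CG34222* on the opposite strand by 158 bases.

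Of the secreted proteins outside the core network, *SPARC* and *Ppn* rose and *Pxn* had higher values short of the fold limit. *SPARC* (FBgn0026562, chr3R:26869238-26871995, minus strand) encodes a glycoprotein that binds collagen IV and is needed for its normal deposition in flies. It had 706.5 and 777.2 CPM in the mutant, against 474.4 and 543.1 CPM in wild-type. The groups were apart, with replicate 2 the higher library in each. *SPARC* rose by 0.54 on the log2 scale (SE 0.11, 95% interval 0.31 to 0.78, adjusted p = 0.0020), or 1.46-fold. This call was near the fold limit and was lost without wild-type replicate 1 (0.45), without enhancer mutant replicate 2 (0.49) and with library sizes alone (0.35). Nearly all of the gene's TPM, between 99.1% and 99.5%, was in FBtr0085094.

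*Ppn* (papilin, FBgn0003137, chr3R:28520665-28540324, minus strand) rose the most of the 10 genes. Papilin is a secreted proteoglycan-like protein related to the ADAMTS metalloproteases, without a protease domain, and is found in fly basement membranes. It had 4382 and 3075 counts in the mutant, against 806 and 608 in wild-type, or 157.0 and 134.1 CPM in the mutant against 39.4 and 34.7 CPM in wild-type. The lowest mutant value was far above the highest wild-type value. The log2 fold change was 1.97 ± 0.12 (SE, 95% interval 1.72 to 2.23, adjusted p = 4.92e-07), a 3.93-fold rise, and leaving out each library gave 1.87 to 2.09. By TPM, *Ppn* ranked 4666 and 4898 of all genes in the mutant, against 6592 and 6622 in wild-type. The gene 149 bases beyond its end, *CG31051*, fell, with 4 and 1 counts in the mutant against 25 and 25 in wild-type (log2 fold change -3.68, adjusted p = 0.00044).

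The rise of *Ppn* was divided unevenly among its transcripts, which share their annotated start. FBtr0300337, with 12 exons, had 1198 and 1069 counts in the mutant, against 53.6 and 75.1 in wild-type. FBtr0301838, with 16 exons, had 2369 and 1496 counts in the mutant, against 633.8 and 498.5 in wild-type. FBtr0300337 held 31.9% and 39.9% of the gene's TPM in the mutant and 8.12% and 14.9% in wild-type, while FBtr0301838 held 51.0% and 45.1% in the mutant and 77.7% and 79.8% in wild-type. Both mutant libraries were on one side of both wild-type libraries for each share, as a description of Salmon's estimates with no test.

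*Pxn* (peroxidasin, FBgn0011828, chr3L:2601455-2630064, minus strand) encodes the heme peroxidase that forms sulfilimine cross-links between collagen IV molecules. It had 128.5 and 121.0 CPM in the mutant, against 91.5 and 98.8 CPM in wild-type. Both mutant libraries were higher, and the log2 fold change of 0.39 ± 0.10 (SE, 95% interval 0.18 to 0.60, adjusted p = 0.0068) passed the adjusted p but not the fold limit. On the TPM scale its log2 ratio was -0.04, against a median of -0.43 over all tested genes. *Pxn* shares 82 bases of exon with *CG16986* on the opposite strand, which rose (0.51, adjusted p = 0.0047), and whether the counting used strand is not given in the sources used here.

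Other genes that make, handle or bind this matrix were followed in 5 further lists, whose counts are to be read beside the 15.3% of all tested genes called lower and the 12.6% called higher. Of 13 other matrix components, 10 were tested, 2 fell and 3 rose (50.0% of those tested were called), with a median log2 fold change of 0.04. The glypican gene *dlp* was at 5.98 and 4.14 CPM in the mutant and 23.8 and 25.1 CPM in wild-type (-2.25, adjusted p = 2.80e-06), whereas the other glypican gene, *dally*, was at 31.4 and 30.7 CPM in the mutant and 20.9 and 19.7 CPM in wild-type (0.61, adjusted p = 0.00068). The call of *dally* was lost with library sizes alone (0.42) and with an effective length offset (0.45). *mfas*, encoding the fasciclin-domain protein midline fasciclin, also fell (-2.34). *Tig* (tiggrin, an integrin ligand) rose at 101.4 and 90.2 CPM in the mutant against 59.0 and 48.0 CPM in wild-type (0.84), and *wb* rose at 9.82 and 10.5 CPM in the mutant against 6.21 and 5.08 CPM in wild-type (0.84, adjusted p = 0.0027). *Mp* (Multiplexin, a collagen XV/XVIII homolog) had at most 14 counts and was not tested.

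None of 14 collagen modification and export genes fell in edgeR with TMM factors (0 by an unadjusted p below 0.05 and 0 in DESeq2). Of the 14, 3 rose, fewer of the tested genes called (21.4%) than among all genes (27.9%), and the list's median was 0.28. *PH4alphaEFB*, a prolyl 4-hydroxylase that modifies collagen in the endoplasmic reticulum, was at 585.0 and 612.6 CPM in the mutant and 216.6 and 255.7 CPM in wild-type, a log2 fold change of 1.34 ± 0.11 (SE, adjusted p = 4.99e-06). *Plod*, the lysyl hydroxylase of the same compartment, was at 53.8 and 53.7 CPM in the mutant and 35.4 and 35.1 CPM in wild-type (0.61, adjusted p = 0.00030). The direction of *PH4alphaEFB* and *Plod* was thus opposite to that of both collagen IV chains. *Rab10*, a small GTPase of basement membrane secretion in fly follicle cells, rose by 0.57. By adjusted p alone 8 of the 14 passed, all higher, where 48.7% of all tested genes passed in either direction. That single direction depended on the scaling. With library sizes alone, where the median of all tested genes was -0.20, only *PH4alphaEFB* was called (1.15). By adjusted p alone in that edgeR fit, *PH4alphaEFB*, *Plod* and *Rab10* passed as higher. *Tango1* (-0.35, adjusted p = 0.015), *Sec31* (-0.255, adjusted p = 0.041) and *Crag* (-0.26, adjusted p = 0.040) passed as lower. With TMM factors *Tango1*, the export receptor for collagen, was not called (-0.16, adjusted p = 0.252). It was at 78.7 and 66.7 CPM in the mutant and 85.8 and 76.6 CPM in wild-type.

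Of 10 matrix proteases, inhibitors and crosslinkers, 8 were tested, 3 fell (37.5% of those tested) and 0 rose in edgeR (0 rose by an unadjusted p below 0.05 and 0 in DESeq2), with a median of -0.12. *Mmp1*, a secreted matrix metalloprotease, was at 13.0 and 11.0 CPM in the mutant and 27.9 and 23.4 CPM in wild-type (-1.09 ± 0.13, SE, adjusted p = 0.00011). *Mmp2*, the membrane-anchored one, was not called, at 184.8 and 190.0 CPM in the mutant and 174.0 and 177.0 CPM in wild-type (0.09, adjusted p = 0.392). *AdamTS-A* (-1.82) and *Loxl1*, a lysyl oxidase homolog (-1.97), fell, with at most 71 counts in any library, and *Timp*, the metalloprotease inhibitor, had between 5 and 20 counts (0.39, adjusted p = 0.541).

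Among 11 matrix receptors, 9 were tested, 3 fell and 2 rose (55.6% of those tested were called, beside 27.9% of all tested genes), with a median of 0.24. *mys*, the main integrin beta subunit, was at 502.5 and 474.2 CPM in the mutant and 297.9 and 277.8 CPM in wild-type (0.76 ± 0.10, SE, adjusted p = 0.00012). *mew*, the alpha subunit of a laminin-binding integrin, was at 58.7 and 58.6 CPM in the mutant and 24.2 and 23.5 CPM in wild-type (1.29, adjusted p = 1.90e-06). The 3 that fell were all integrin alpha subunits at lower levels: *scb* at 2.15 and 3.05 CPM in the mutant and 12.6 and 13.6 CPM in wild-type (-2.34), *if* (-1.84) and *ItgaPS4* (-1.18). *Dg*, dystroglycan, was at 328.9 and 283.6 CPM in the mutant and 247.5 and 217.4 CPM in wild-type, short of the fold limit (0.40, adjusted p = 0.011).

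For heparan sulfate, the sugar chain that perlecan and the glypicans carry, 14 of 16 genes were tested, 2 fell and 1 rose (21.4% of those tested were called, beside 27.9% of all tested genes), with a median of -0.06. *sfl*, the N-deacetylase/N-sulfotransferase, fell by 0.51 and *Hs6st*, the 6-O-sulfotransferase, fell by 0.65, while *beta4GalT7*, which builds the linker to the core protein, rose by 0.73 (adjusted p = 0.0027, 0.0018 and 0.00029, in the order named). These 3 were called from 253 to 1123 counts per library, and in DESeq2 *sfl* (-0.50) was short of the fold limit.

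**Figure D4:**
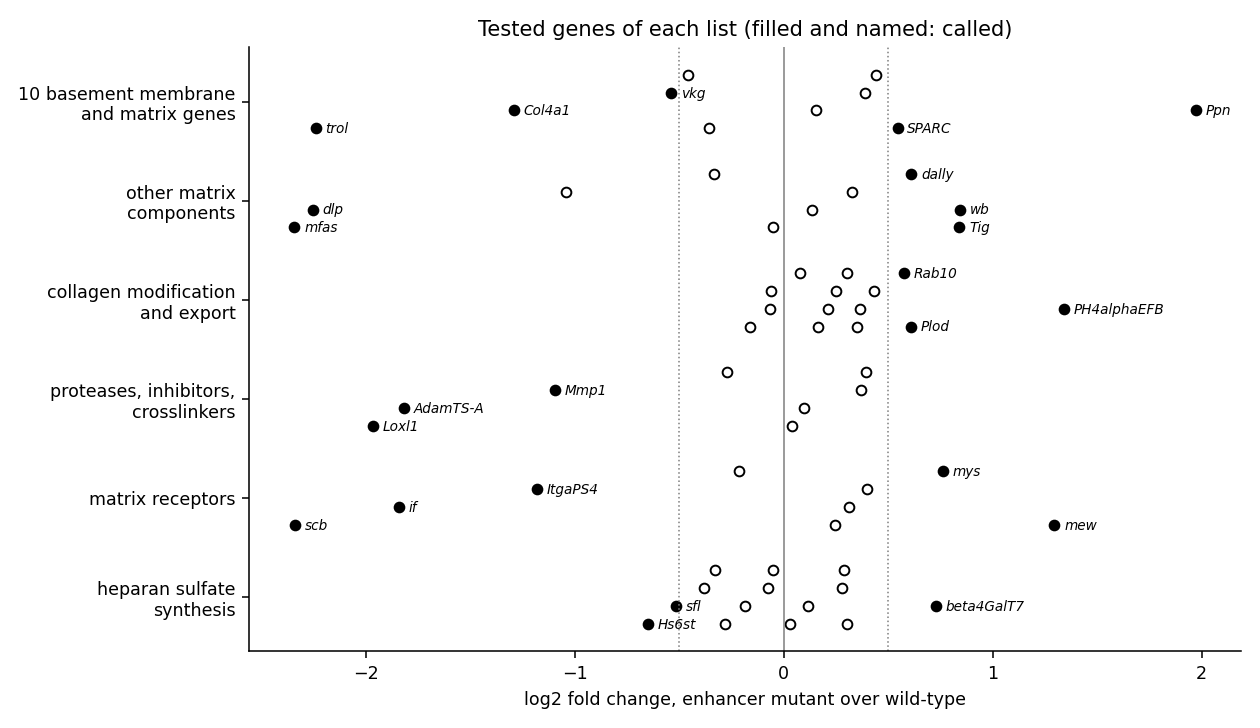
Log2 fold change of enhancer mutant over wild-type (horizontal axis) for every tested gene of the 10 basement membrane and matrix genes and of the 5 other lists (rows), filled and named where called, with dotted lines at -0.5 and 0.5. The collagen modification and export row has no called gene on the left, and the row of proteases, inhibitors and crosslinkers has none on the right.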

How the data were processed

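Total RNA of S2R+ cells was sequenced as paired-end reads of 150 bp, 2 libraries per group. The authors quantified transcripts with Salmon 0.10.2 against a dm6 transcriptome and deposited, for each of 30070 transcripts, an estimated count (not normalized) and a TPM value (scaled by the authors to effective length and to a sum of 1000000 per library). The annotation release is not given in the sources used here. Groups come from the genotype labels and replicate numbers from the sample titles.

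Here, the Ensembl annotation gave a gene for 29850 transcripts, over which the deposited estimated counts were added up and rounded to whole numbers. edgeR 4.0.16 in R 4.3.3 (filterByExpr, TMM, glmQLFit, glmQLFTest) tested 8182 genes with Benjamini-Hochberg adjustment. The standard error was taken from the size of the log2 fold change over the square root of F, and the 95% interval uses the fit's degrees of freedom. Log2 TPM ratios were taken of group means after adding 0.1. Replicates differed by more than sampling noise (chi-square per degree of freedom 16.7 for the mutant pair and 33.8 for the wild-type pair). Alternatives were DESeq2 1.42.0, other scaling factors, other filters, an effective length offset, a replicate block and each library left out. The fit was also run on data simulated from its own means and spreads, which cannot show how well it holds on these libraries.

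The genes and lists were chosen with earlier results of these data known. Named are all 10 genes, every called gene of the lists, a few defining subunits, called neighbors, and *Notch*; other genes named were chosen after their values were seen. Sequences, Hi-C and ChIP data were not used here.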

Additional observations from a re-analysis of the deposited data

How the results depend on the processing

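The count of matrix genes called was 5 and between 4 and 6 under 12 of 14 alternatives, but not always over the same genes: without wild-type replicate 1 it was 5, with *vkg* and *SPARC* lost and *LanA* and *LanB2* gained (3 higher). It was 8 by adjusted p alone and 3 with a log2 fold change of at least 1. The count called higher, 2, became 1 with library sizes alone, 4 by adjusted p alone and 1 with a log2 fold change of at least 1, and the count over all genes, 2285, became 3984 and 1030 under the last pair of settings. With library sizes alone, 1 gene of collagen modification and export was called in place of 3, and 5 of heparan sulfate synthesis in place of 3. The median log2 fold change of the 10 genes was -0.29 with library sizes alone and -0.37 on TPM, where the median of all tested genes was -0.20 and -0.43. It lay between -0.246 and -0.012 when each library was left out, the upper end without wild-type replicate 1. *LanA* turned negative with library sizes alone (-0.038), on TPM (-0.295) and without wild-type replicate 2 (-0.154), where leaving out wild-type replicate 1 gave 0.56, and on TPM *LanB2* (-0.0026) and *Pxn* (-0.044) did too, the scale whose overall median is -0.43. *Col4a1*, *trol*, *Ppn* and *Ndg* kept their direction in all 13 alternatives run for each, and their call, or lack of one, in each of these that has a test (TPM has none).

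The replicate numbers are not said to mark a shared culture or day, and deviations of same-numbered libraries correlated at 0.17. With the replicate block, 2276 genes were called, 2256 of them shared with the 2285 of the fit without it, and the same 5 matrix genes were called. Low counts limit *Ndg*, *vkg*, *trol* and *Col4a1*, which had at most 393 counts in a library, and only 2 libraries per group limit all values.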

Other observations

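At the transcript level, some genes had shares that separated the groups although the estimates rest on few counts. FBtr0079001 of *Col4a1* had 40.5 and 0 estimated counts in the mutant, against 135.5 and 130.5 in wild-type, and averaged 0.11 ± 0.16 TPM in the mutant and 1.37 ± 0.15 TPM in wild-type, while FBtr0079002 averaged 0.562 ± 0.017 TPM in the mutant and 0.90 ± 0.10 TPM in wild-type (SD, n = 2 each). FBtr0072952 of *Pxn* had 113.4 and 103.8 counts in the mutant, against 271.4 and 189.4 in wild-type. It held 2.99% and 3.55% of the gene's TPM in the mutant against 13.9% and 10.4% in wild-type, although *Pxn* as a whole had higher CPM in the mutant. More abundant *Pxn* transcripts were divided unevenly between the wild-type libraries themselves. FBtr0072951 held 44.2% and 23.2% there, and FBtr0072954 33.6% and 57.9%, so shares of single *Pxn* transcripts are uncertain. Of the annotated transcripts of *trol*, FBtr0342811 had 53.2 and 4.68 counts in the mutant, against 275.1 and 150.0 in wild-type. FBtr0342815 had 34.6 and 52.0 counts in the mutant, against 46.6 and 71.2 in wild-type. The mutant libraries disagreed on the division of *trol* TPM, with 48.2% and 6.61% in FBtr0342811 and 30.8% and 72.0% in FBtr0342815. A loss particular to either transcript cannot be read from so few counts. These values are descriptions and were not tested, and the TPM values are on the scale whose median over all tested genes was -0.43.

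Some of the nearest tested genes on each side of the 10 matrix genes were called but not described above. Lower were *CG8219*, 54 bases from *LanA* (-1.07, adjusted p = 0.024), and *CG42673*, 18200 bases from *LanB2* (-2.33, adjusted p = 0.0056). *CG8219* had 32 and 33 counts in the mutant against 70 and 34 in wild-type, and *CG42673* had 9 and 2 against 26 and 16. Higher were *Ldh*, on the other side of *LanA* (2.56, adjusted p = 4.95e-08), and *Prx6c*, 96613 bases from *Ndg* (2.27, adjusted p = 4.75e-07). *Ldh*, encoding lactate dehydrogenase, was at 183.0 and 195.1 CPM in the mutant and 34.4 and 29.5 CPM in wild-type, and lies 41082 bases from *LanA*.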
